A study of Homo sapiens with 15 samples.

Results

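The plasminogen activation system and a set of related serpins were examined as 7 genes: PLAU, PLAT, PLAUR, SERPINE2, SERPINB2, SERPINI1 and SERPINB8, out of 20149 annotated protein-coding genes. They were chosen by name and function, with earlier results of these data known. An H3K4me3 peak was assigned to a gene when it lay within 2 kb of any annotated transcript start of that gene, which gave 8 of 22572 peaks. An H3K27ac peak was assigned when it lay within 100 kb of a start and the nearest protein-coding start belonged to a listed gene, which gave 25 of 62195 peaks. ChIP-seq of both marks, H3K4me3 at active promoters and H3K27ac at active promoters and enhancers, was made in the established breast cancer cell line MDA-MB-231 (Par) and in its in vivo selected sub-populations LM2, which colonises the lung of mice, and BrM2, which colonises the brain. There were 15 samples: 12 mark libraries, with 2 replicates for each line and mark, and 3 inputs that were not analysed here. All 3 lines were cultured in the same way, in DMEM with 10% serum for 3 days and with no treatment, and then fixed in 1% formaldehyde. Each line is a cultured population derived from the same tumour line, so the comparison is between cells in culture and not between cells taken from an organ.

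Plasmin is a broad protease that degrades fibrin and pericellular matrix, and it is made from plasminogen by the activators urokinase (PLAU) and tissue-type plasminogen activator (PLAT). The urokinase receptor (PLAUR) holds urokinase at the cell surface. Serpins are suicide inhibitors that trap their protease in a covalent complex: SERPINB2, also called plasminogen activator inhibitor type 2, inhibits urokinase; SERPINE2, or protease nexin, inhibits thrombin and both activators; SERPINI1, or neuroserpin, inhibits tissue-type activator mainly in the nervous system; and SERPINB8 is an intracellular serpin that inhibits furin-like proteases. SERPINB2 and SERPINI1 are among the serpins that have been studied in brain metastasis, where they limit plasmin around the tumour cells.

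The sequences below come from promoters of the listed genes and from called H3K27ac peaks. The first 3 are the 200 bases before the canonical transcript start, read 5′ to 3′ in the direction of transcription from build GRCh37 (hg19). They show a GC-rich window beside windows that hold TATAAA, close to the start in SERPINB2 and farther from it in SERPINB8. The last 2 are the central 200 bases, on the plus strand, of the H3K27ac peaks that changed. No assigned peak covered the SERPINB2 promoter window, whose canonical start lies 16099 bases beyond the SERPINB2 upstream peak. Capitals mark matches on either strand to the letters TATAAA of the classical core promoter box, to GGGCGG, which is the box bound by Sp1 factors, or to TGANTCA, which is the consensus of AP-1 factors, and overlapping matches run together.
PLAU promoter, chr10:75670690-75670889 (+): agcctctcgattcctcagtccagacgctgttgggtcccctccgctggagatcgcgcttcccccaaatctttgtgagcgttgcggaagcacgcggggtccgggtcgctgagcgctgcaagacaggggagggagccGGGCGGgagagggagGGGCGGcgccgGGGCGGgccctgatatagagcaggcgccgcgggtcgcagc
SERPINB2 promoter, chr18:61554739-61554938 (+): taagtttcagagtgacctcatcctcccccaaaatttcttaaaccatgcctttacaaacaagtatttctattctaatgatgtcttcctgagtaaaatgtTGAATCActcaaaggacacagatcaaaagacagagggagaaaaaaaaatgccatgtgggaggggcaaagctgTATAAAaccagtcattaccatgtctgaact
SERPINB8 promoter, chr18:61637115-61637314 (+): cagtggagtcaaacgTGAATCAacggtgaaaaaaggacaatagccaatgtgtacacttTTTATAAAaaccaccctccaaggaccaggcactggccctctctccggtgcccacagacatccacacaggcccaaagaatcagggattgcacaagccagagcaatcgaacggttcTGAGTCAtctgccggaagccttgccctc
SERPINB2 upstream H3K27ac peak, centre, chr18:61536658-61536857 (+): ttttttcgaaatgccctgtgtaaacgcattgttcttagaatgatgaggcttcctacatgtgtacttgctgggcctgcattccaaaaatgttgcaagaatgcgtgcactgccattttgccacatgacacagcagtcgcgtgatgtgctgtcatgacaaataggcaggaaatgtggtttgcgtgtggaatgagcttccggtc
SERPINE2 intronic H3K27ac peak, centre, chr2:224890872-224891071 (+): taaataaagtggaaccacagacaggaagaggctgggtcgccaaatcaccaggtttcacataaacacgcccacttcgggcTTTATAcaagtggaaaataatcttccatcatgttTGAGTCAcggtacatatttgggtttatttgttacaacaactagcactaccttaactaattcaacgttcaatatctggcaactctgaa

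The promoters of the listed genes were of different kinds. PLAU held 22 CpG dinucleotides and 3 GC boxes in its window, and SERPINE2 held 31 CpG and 4 GC boxes, against a median of 15 CpG over 19867 promoter windows of the same length, of which 56.5% held a GC box. SERPINB2 held 0 CpG, 1 TATA box and 1 AP-1 match, and SERPINB8 held 6 CpG, TATA matches and 2 AP-1 matches. PLAUR held 1 AP-1 match and 13 CpG, and SERPINI1 held none of the 3 marked motifs and 8 CpG. TATAAA was found in 7.74% of all promoter windows and TGANTCA in 3.72%, and CANNTG (an E-box), which was also searched, in 48.7%. Of all 200-base H3K27ac centres, 9.73% held TGANTCA and 12.1% held TATAAA. Over the whole lengths of the 25 assigned H3K27ac peaks, 16 held at least 1 TGANTCA, or 64.0%, beside 47.3% of all H3K27ac peaks. The density was 0.58 beside 0.44 matches per kb. A longer peak has more room for a match, the shares were not adjusted for length, and 1 PLAU peak of 31234 bases held 18 matches. These are matches of letters and were not related to any factor here.

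The libraries held 3489607 to 9839629 reads in H3K4me3 peaks and 1994996 to 6450028 reads in H3K27ac peaks, so 1 read was worth 0.102 to 0.287 CPM (counts per 1000000 reads in the peaks of the mark) for H3K4me3 and 0.155 to 0.501 CPM for H3K27ac. BrM2 replicate 2 was the shallowest H3K27ac library. Promoter H3K4me3, summed over the peaks of a gene, was found at 4 of 4 mesenchymal markers. VIM had 201 to 251 CPM, ZEB1 205 to 264, AXL 115 to 329 and CD44 103 to 193. The mark was also found at 8 of 8 epithelial markers. ERBB2 had 159 to 177 CPM, KRT8 81.2 to 189, KRT18 59.2 to 101 and EPCAM 36.4 to 72.5. GATA3 had 8.03 to 40.7 CPM, ESR1 6.88 to 39.5, PGR 1.15 to 20.4 and CDH1 2.01 to 8.03. A peak was found at 1 of 4 blood markers (CD14, 5.28 to 16.0 CPM) and at 0 of 2 endothelial markers. Same-numbered libraries deviated together in every pair of lines, so each test was run without and with the replicate number as a block. The p-values set each difference between lines against a spread between replicates estimated from all 6 libraries of a mark, 2 per line. In these bulk libraries, a mark on more of the cells and more of the mark per cell cannot be told apart.

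H3K4me3 covered the starts of 6 of the 7 genes, and SERPINB2 had no H3K4me3 peak within 2 kb of any of its 5 distinct starts. Per kb of peak in Par, the level was highest at SERPINE2 at 46.8 ± 11.3 CPM per kb (SD, n = 2). SERPINI1 followed at 26.6 ± 8.98, PLAUR at 24.4 ± 3.16, PLAU at 18.1 ± 1.58, SERPINB8 at 13.5 ± 5.00 and PLAT at 9.31 ± 1.73 CPM per kb. SERPINI1 and PLAUR did not differ beyond their spread, and neither did SERPINB8 and its neighbours in this order. The PLAU peak was 7913 bases long, rank 87 of 22572 by length. The SERPINI1 peak also covered the start of PDCD10, which is transcribed the other way from the same region, so its reads cannot be divided between these genes. PLAT had a further 2 small intronic peaks near alternative starts, which held at most 23 reads in any library.

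**Figure D1:**
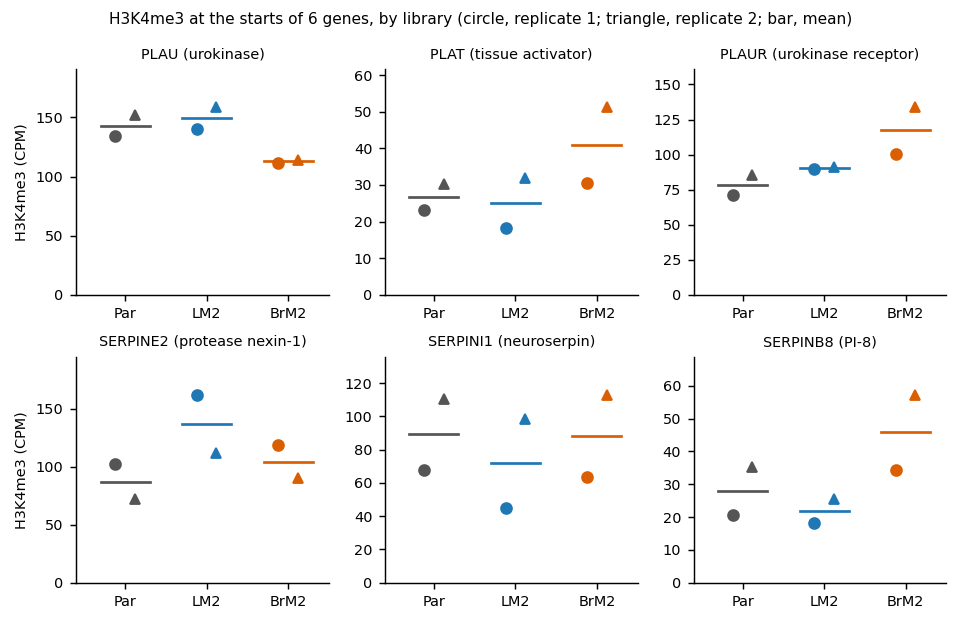
H3K4me3 in CPM (vertical axes, each from 0) at the start peaks of 6 genes in Par (grey), LM2 (blue) and BrM2 (orange). Circles are replicate 1, triangles replicate 2 and bars the mean of 2. In BrM2 the PLAU libraries sat at 111 and 114 CPM, below all the other 4, and the PLAUR libraries at 100.4 and 134, above all the other 4.

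The question at the starts was whether promoter H3K4me3 of the activators, the receptor and the serpins differed between the lines. At PLAU (chr10:75667938-75675850), H3K4me3 was 134 and 152 CPM in Par, 140 and 159 in LM2, then 111 and 114 in BrM2. Both BrM2 libraries were the lowest and did not overlap the others. The log2 fold change was 0.10 ± 0.30 (SE) for LM2 against Par, -0.40 ± 0.30 for BrM2 against Par and -0.50 ± 0.30 for BrM2 against LM2, none of which passed (DESeq2 Wald test, Benjamini-Hochberg adjusted p = 1, 0.825 and 0.621). With the replicate block, the BrM2 differences were -0.41 ± 0.11 (adjusted p = 0.00363) and -0.50 ± 0.11 (adjusted p = 0.000124).

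At PLAT (chr8:42062656-42065527), the other activator, the values were 23.2 and 30.2 CPM in Par, 18.1 and 31.8 in LM2, with 30.6 and 51.3 in BrM2. Replicate 2 was higher in each line. BrM2 against LM2 gave 0.62 ± 0.37 (adjusted p = 0.610), and 0.62 ± 0.22 with the block (adjusted p = 0.0281). Against Par, BrM2 was 0.54 ± 0.38 (adjusted p = 0.769), and 0.54 ± 0.23 with the block (adjusted p = 0.082). This difference from Par was called in edgeR with the block (0.60, adjusted p = 0.00201).

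The receptor gene PLAUR (chr19:44171979-44175203) had 71.4 and 85.8 CPM in Par, 90.0 and 91.5 in LM2, then 100.4 and 134 in BrM2. Both sub-populations lay above both Par libraries. BrM2 against Par was 0.51 ± 0.31 (adjusted p = 0.671), and 0.51 ± 0.15 with the block (adjusted p = 0.00451). LM2 against Par was 0.25 ± 0.31 (adjusted p = 1), and with the block 0.24 ± 0.15 (adjusted p = 0.319). The median over 143 other H3K4me3 peaks within 2.5 Mb was 0.25 for BrM2, and once such 5 Mb window medians were taken out the BrM2 difference was 0.21.

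At SERPINE2 (chr2:224902838-224904700), H3K4me3 was 102 and 72.2 CPM in Par, 162 and 112 in LM2, with 118 and 90.2 in BrM2. Both LM2 libraries lay above both Par libraries, and replicate 1 was the higher in each line. LM2 against Par was 0.69 ± 0.41 (adjusted p = 0.768), and with the block 0.68 ± 0.13 (adjusted p = 3.09e-06). Without the block, leaving out 1 library moved it to 0.17 (LM2 replicate 1), 0.34 (Par replicate 2), 1.06 (LM2 replicate 2) or 1.15 (Par replicate 1). BrM2 against LM2 was -0.50 ± 0.41 (adjusted p = 0.815), and with the block -0.47 ± 0.12 (adjusted p = 0.00129), and it ran from -0.87 to 0.00 as 1 library was left out, without LM2 replicate 2 and without LM2 replicate 1. For BrM2 against Par the difference was 0.19 ± 0.41, which did not pass in DESeq2 with or without the block (adjusted p = 0.293 and 0.996). It was called in edgeR with the block (0.25, adjusted p = 0.028). Over 25 other H3K4me3 peaks within 2.5 Mb, LM2 against Par had a median of 0.29. BrM2 had -0.07 against Par and -0.20 against LM2. With window medians removed, the differences at SERPINE2 were 0.53 for LM2 against Par, 0.34 for BrM2 against Par and -0.19 for BrM2 against LM2.

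SERPINB8 (chr18:61636891-61638962) had 20.6 and 35.3 CPM in Par, 18.1 and 25.5 in LM2, then 34.5 and 57.3 in BrM2. The BrM2 libraries were above both LM2 libraries and overlapped those of Par. BrM2 against LM2, at 0.97 ± 0.37, was the largest H3K4me3 difference among the start peaks (adjusted p = 0.176, and 0.000151 with the block). BrM2 against Par was 0.65 ± 0.37 (adjusted p = 0.601, and 0.0224 with the block). The median of 21 other H3K4me3 peaks within 2.5 Mb was 0.67 for BrM2 against Par and 0.73 for BrM2 against LM2, and with window medians removed the differences at SERPINB8 were 0.14 and 0.23. Among 12328 promoter peaks compared, those with a pattern over the 6 libraries most like it included DDX19A (Pearson r = 0.998 on log2(CPM + 1)) and ACIN1 (0.997). This is a description over 6 libraries that share the replicate shift.

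SERPINI1 (chr3:167451188-167454541) had 67.9 and 110.5 CPM in Par, 45.2 and 98.7 in LM2, with 63.3 and 113 in BrM2. Replicate 2 was the higher in each line, and the gap between replicates was wider than any gap between lines. Within each replicate number LM2 was the lowest line. The log2 differences were -0.30 ± 0.38 for LM2 and -0.09 ± 0.38 for BrM2 against Par, with 95% intervals of -1.04 to 0.44 and -0.82 to 0.65. Neither passed in DESeq2, with the block or without it. In edgeR with the block, SERPINI1 was called for LM2 against Par (-0.31, adjusted p = 0.0188) and for BrM2 against LM2 (0.27, adjusted p = 0.0276). Without the block, the LM2 difference ran from -0.76 to 0.02 when 1 library was left out, the ends being without LM2 replicate 2 and without LM2 replicate 1.

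Counted over the 8 H3K4me3 peaks, 0 were called in any of the 3 comparisons without the block. Of all peaks with an adjusted p, 2.51% were called for LM2 against Par, 3.61% for BrM2 against Par and 3.18% for BrM2 against LM2. The edgeR quasi-likelihood test also called 0 in each comparison, beside 1.91%, 3.86% and 3.36% of all peaks. At an unadjusted p under 0.05, DESeq2 gave 0, 0 and 1 of the 8 peaks, the 1 being SERPINB8, beside 8.11%, 10.5% and 10.9% of all peaks. With the replicate block, DESeq2 called 1 peak for LM2 against Par (SERPINE2), 3 for BrM2 against Par (PLAU, PLAUR and SERPINB8) and 4 for BrM2 against LM2 (PLAU, PLAT, SERPINE2 and SERPINB8), beside 14.4%, 17.7% and 22.0% of all peaks. The edgeR test with the block called 2, 5 and 6 of the 7 peaks it kept, where it called 31.1%, 36.3% and 42.7% of all peaks. The median log2 fold change over the 8 peaks was 0.01, 0.38 and 0.24, beside 0.02, -0.02 and -0.04 over all peaks. The BrM2 against Par median was 0.63 without BrM2 replicate 1. The BrM2 against LM2 median was 0.00 without LM2 replicate 1, 0.42 without BrM2 replicate 1 and 0.78 without LM2 replicate 2. The comparisons with Par share the same Par libraries.

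**Figure D2:**
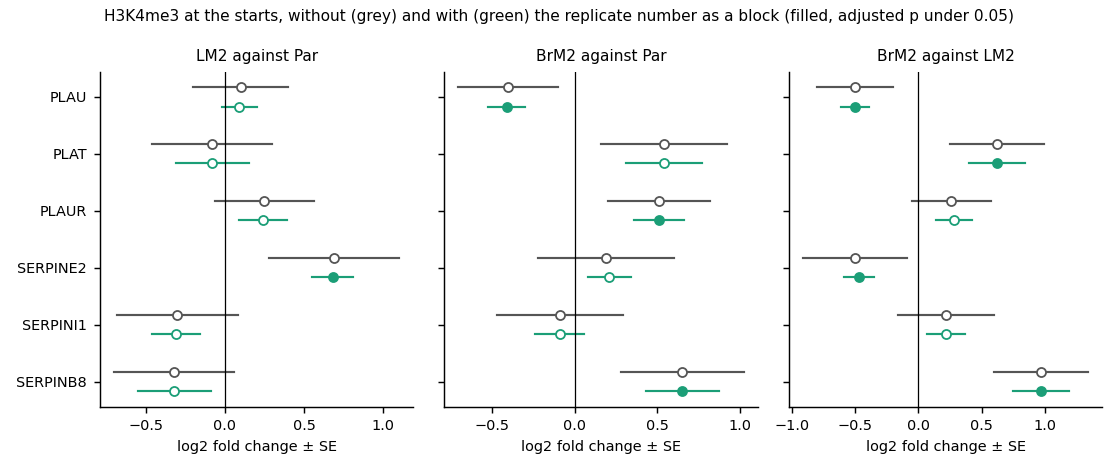
Log2 fold change in H3K4me3 (horizontal axes, ± SE) at the start peaks of 6 genes in the 3 comparisons, without the replicate block (grey) and with it (green). Filled points have an adjusted p under 0.05. The point estimates stayed in place, the SE of SERPINE2 in LM2 against Par fell from 0.41 to 0.13, and points are filled in the blocked fit only.

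H3K27ac was assigned to all 7 genes, and the number of peaks ran from 1 at SERPINB8 to 6 at PLAT and at SERPINE2. PLAU lay in a domain of 31234 bases (chr10:75645565-75676798), rank 28 of 62195 by length. The domain covered no start of another protein-coding gene, but it overlapped an H3K4me3 peak for which CAMK2G was the nearest start. Whether its H3K27ac relates to PLAU alone was not tested. Its H3K27ac was 351 and 410 CPM in Par, 363 and 383 in LM2, then 338 and 334 in BrM2. The BrM2 libraries were the lowest, but the difference from Par was -0.18 ± 0.24 (95% interval -0.64 to 0.29, adjusted p = 0.836). For LM2 it was -0.09 ± 0.24 (95% interval -0.55 to 0.37, adjusted p = 0.966).

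**Figure D3:**
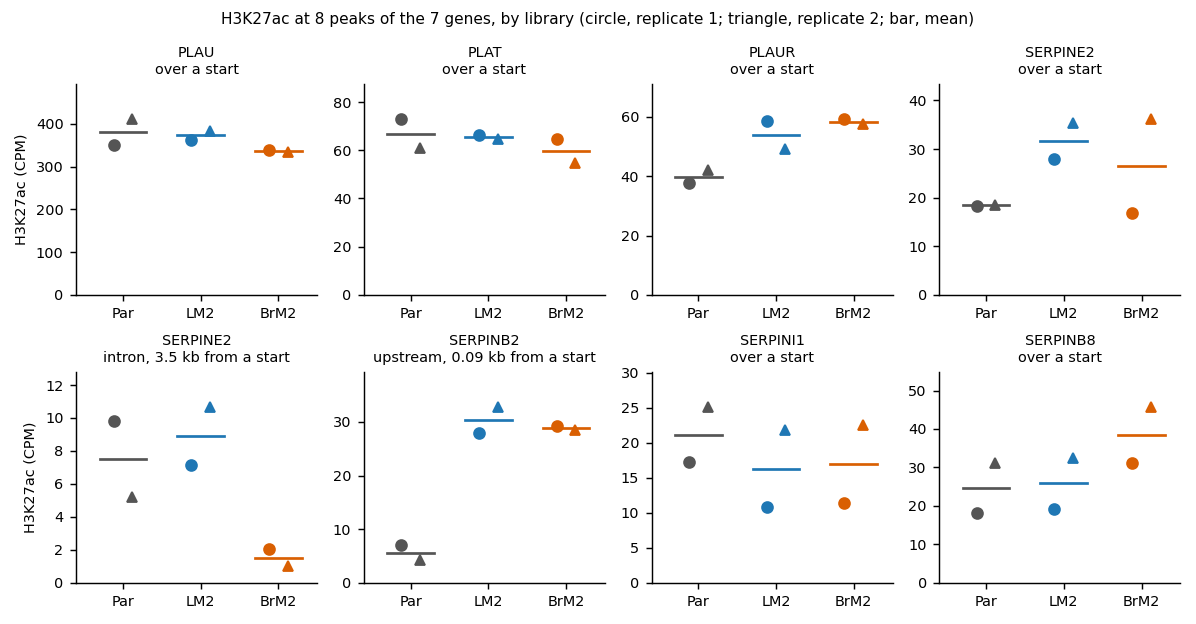
H3K27ac in CPM (vertical axes, each from 0) at 8 peaks: the strongest peak of each of the 7 genes and the SERPINE2 intronic peak, in Par (grey), LM2 (blue) and BrM2 (orange). Circles are replicate 1, triangles replicate 2 and bars the mean of 2. The SERPINB2 peak stood at 4.18 and 7.07 CPM in Par and between 27.9 and 32.7 CPM in the other 4 libraries, and the SERPINE2 intronic peak was at 1.00 and 2.04 CPM in BrM2.

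The SERPINB2 upstream peak (chr18:61534674-61538840) showed the largest gain among the 25. It is 4167 bases long, ends 86 bases before the 5′-most annotated start of SERPINB2 and 16099 bases before the canonical start, and its nearest H3K4me3 peak was 64488 bases away, at HMSD. H3K27ac was 7.07 and 4.18 CPM in Par, from 31 and 16 reads. In LM2 it was 27.9 and 32.7 CPM, from 180 and 123 reads, and in BrM2 29.3 and 28.6 CPM, from 115 and 57 reads. All 4 libraries of the sub-populations lay above both Par libraries and close to each other. The log2 fold change was 2.35 ± 0.40 for LM2 against Par, or 5.11-fold (DESeq2 adjusted p = 1.90e-06), and 2.36 ± 0.41 for BrM2 against Par, or 5.12-fold (adjusted p = 2.48e-06). LM2 and BrM2 differed by 0.00, with a 95% interval of -0.70 to 0.71 (adjusted p = 0.999).

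The surroundings of this peak differed between the sub-populations. Over 59 other H3K27ac peaks within 2.5 Mb, LM2 had a median log2 fold change of 0.12, with 32 of the 59 above 0, whereas BrM2 had a median of 1.05, with 56 above 0. With the 5 Mb window medians removed, the SERPINB2 peak was at 2.21 in LM2 (adjusted p = 1.46e-05) and 1.28 in BrM2 (adjusted p = 0.0473), and BrM2 against LM2 was -0.93 (adjusted p = 0.248). The local shift thus stood beside the BrM2 value and was small beside the LM2 value, and its source was not tested.

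**Figure D4:**
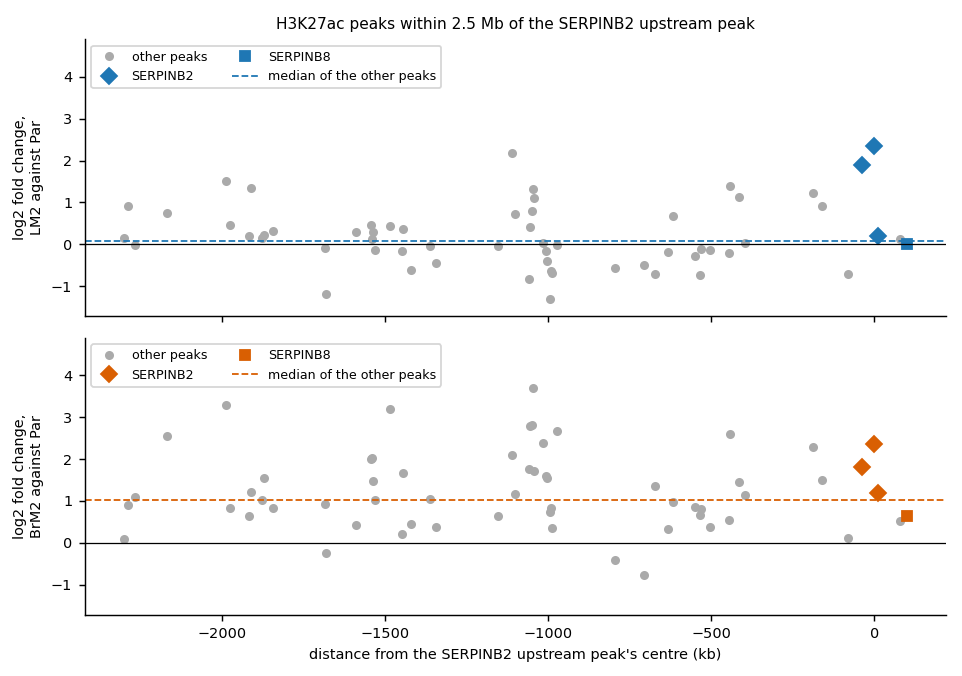
Log2 fold change in H3K27ac against Par (vertical axes) for peaks within 2.5 Mb of the SERPINB2 upstream peak, by distance from its centre in kb, in LM2 (top) and BrM2 (bottom). Grey points are other peaks, diamonds SERPINB2, squares SERPINB8 and dashed lines the median of the grey points. In LM2 the peak at 2.35 stands above every other point, whereas in BrM2 most points lie above 0 and several lie above the peak at 2.36.

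The other SERPINB2 peaks were weaker. A peak in an intron (chr18:61547959-61550606) had 8.89 and 3.92 CPM in Par, 8.68 and 6.65 in LM2, with 13.5 and 16.0 in BrM2, with 1.19 ± 0.51 for BrM2 against Par (adjusted p = 0.186). The third, 39709 bases upstream, had at most 3.99 CPM, with 1.88 ± 0.93 for LM2 (adjusted p = 0.361) and 1.80 ± 0.96 for BrM2 (adjusted p = 0.354). Neighbouring SERPINB8 had 18.2 and 31.1 CPM over its start (chr18:61636411-61639356) in Par, 19.2 and 32.4 in LM2, then 31.1 and 45.6 in BrM2. Its difference from Par was 0.00 ± 0.40 in LM2 and 0.63 ± 0.40 in BrM2 (adjusted p = 1 and 0.480), and the BrM2 value was -0.48 once window medians were removed.

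SERPINE2 had 6 H3K27ac peaks, and they did not move together. The intronic peak 3511 bases from an alternative start (chr2:224889935-224892007) had 9.81 and 5.22 CPM in Par, 7.13 and 10.6 in LM2, then 2.04 and 1.00 in BrM2. Those values rest on 43 and 20 reads in Par, 46 and 40 in LM2, then 8 and 2 in BrM2. Both BrM2 libraries lay below all the others. BrM2 was lower than Par by a log2 fold change of -2.21 ± 0.73 (adjusted p = 0.0473) and lower than LM2 by -2.37 ± 0.72 (adjusted p = 0.0394), while LM2 against Par was 0.16 ± 0.58 (adjusted p = 0.981). These calls were near the threshold: leaving out any 1 of the 6 libraries took the adjusted p to between 0.0948 and 0.507 against Par and between 0.0688 and 0.597 against LM2, at log2 fold changes of -2.90 to -1.69 and -3.07 to -2.04. Without independent filtering the adjusted p was 0.0565 and 0.0508.

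Over the SERPINE2 start, H3K27ac (chr2:224903023-224904775) was 18.2 and 18.5 CPM in Par, 27.9 and 35.4 in LM2, with 16.8 and 36.1 in BrM2. Both LM2 libraries exceeded both Par libraries, and the BrM2 libraries lay on either side. The difference was 0.72 ± 0.39 for LM2 (adjusted p = 0.462) and 0.50 ± 0.40 for BrM2 (adjusted p = 0.645). The remaining 4 SERPINE2 peaks gave -0.55 to 1.28 for BrM2 against Par, and DESeq2 called none of them with or without the block. The peak with 1.28 (chr2:224859454-224861487) was called for BrM2 against Par in edgeR with the block (adjusted p = 0.0138).

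The receptor gene PLAUR carried H3K27ac over its start (chr19:44171921-44176063) at 37.6 and 42.0 CPM in Par, 58.8 and 49.2 in LM2, then 59.1 and 57.6 in BrM2. A second peak 3205 bases upstream had 35.4 and 28.7 CPM in Par, 42.5 and 36.4 in LM2, with 45.9 and 48.1 in BrM2. At both peaks all 4 sub-population libraries lay above both Par libraries. The start peak differed from Par by 0.38 ± 0.29 in LM2 and 0.56 ± 0.29 in BrM2 (adjusted p = 0.713 and 0.338), and in BrM2 by 0.11 with window medians removed, where 245 other peaks within 2.5 Mb had a median of 0.45.

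At PLAT the strongest H3K27ac peak (chr8:42049428-42057205) covered an alternative start and lay 7878 bases inside the canonical one. It held 72.8 and 60.8 CPM in Par, 66.2 and 64.6 in LM2, then 64.7 and 54.6 in BrM2, with overlapping lines and differences of -0.09 ± 0.28 and -0.15 ± 0.28 from Par. The peak 6661 bases upstream had 13.0 and 9.13 CPM in Par, 24.0 and 14.6 in LM2, with 24.0 and 19.6 in BrM2, and BrM2 against Par was 0.98 ± 0.42 (adjusted p = 0.182). At SERPINI1, H3K27ac over the start shared with PDCD10 (chr3:167451258-167453969) was 17.3 and 25.1 CPM in Par, 10.8 and 21.8 in LM2, then 11.5 and 22.6 in BrM2, and the lines overlapped.

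The weaker H3K27ac peaks were not called in any DESeq2 comparison. Downstream of PLAU, the peak at 20911 bases had 7.30 and 8.61 CPM in Par, 6.20 and 4.79 in LM2, with 7.14 and 5.51 in BrM2. The peak at 29344 bases had 9.35 and 8.09 CPM in Par, 9.46 and 13.8 in LM2, with 11.98 and 11.5 in BrM2. Both Par libraries were the highest at the nearer peak and the lowest at the farther peak, with differences of -0.59 ± 0.53 and 0.34 ± 0.45 for LM2 against Par. Over the canonical PLAT start (chr8:42061953-42068289), H3K27ac was 19.2 and 21.4 CPM in Par, 26.7 and 27.9 in LM2, then 20.4 and 18.1 in BrM2, so that LM2 was the highest line, at 0.36 ± 0.34 against Par. A PLAT peak 14188 bases upstream, from 4 to 18 reads a library, gave 1.87 ± 0.84 for BrM2 against LM2 (adjusted p = 0.269). In edgeR with the replicate block, this PLAT peak was called for BrM2 against LM2 (adjusted p = 0.011) and for BrM2 against Par (adjusted p = 0.0391). Upstream of SERPINE2, the peak at 43844 bases had 29.2 and 19.1 CPM in Par, 33.2 and 20.7 in LM2, with 18.9 and 13.5 in BrM2, and BrM2 against Par was -0.55 ± 0.41 (adjusted p = 0.584). The 3 peaks downstream of SERPINI1 lay 53845 to 63401 bases from a start and held at most 7.07 CPM.

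**Figure D5:**
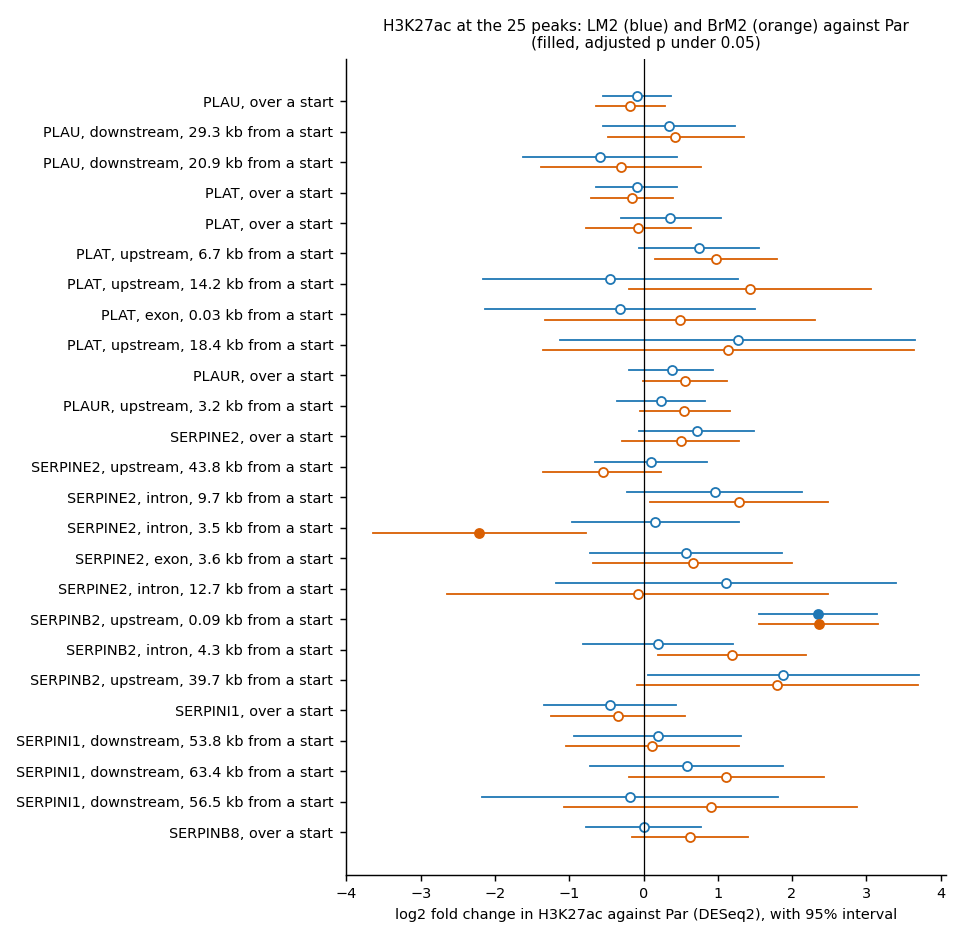
Log2 fold change in H3K27ac with its 95% interval (horizontal axis) for each of the 25 peaks, LM2 against Par in blue and BrM2 against Par in orange. Filled points have an adjusted p under 0.05: SERPINB2 upstream in both sub-populations, at 2.35 and 2.36, and SERPINE2 intronic in BrM2, at -2.21.

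Of the 25 H3K27ac peaks, DESeq2 called 1 of 21 with an adjusted p for LM2 against Par, or 4.76% beside 3.63% of all peaks. It called 2 of 22 for BrM2 against Par, or 9.09% beside 5.29%, and 1 of 20 for BrM2 against LM2, or 5.00% beside 2.94%. The peaks without an adjusted p were those with few reads. With the replicate block, DESeq2 called 1 of 20, 2 of 21 and 1 of 19, beside 5.44%, 8.13% and 6.17% of all peaks. The edgeR test with the block called 4, 9 and 4 of 22, or 18.2%, 40.9% and 18.2%, beside 16.7%, 20.3% and 16.6% of all peaks. The 9 for BrM2 against Par were 2 peaks each of PLAT, PLAUR, SERPINB2 and SERPINE2 and 1 of SERPINB8, and the SERPINE2 intronic peak was the 1 lower among them. The median over the 25 was 0.24 for LM2 and 0.55 for BrM2 against Par, beside -0.02 over all peaks in each comparison. For LM2 it was 0.44 without Par replicate 1, and for BrM2 it was 0.11 with the window medians removed. Peaks of the same gene share a locus and are not independent. Both BrM2 libraries were above both Par libraries at 15 of the 25, or 60.0% beside 24.8% of all peaks. For LM2 this held at 12, or 48.0% beside 24.7%. The other way, both BrM2 libraries were below both Par libraries at 4, or 16.0%, and both LM2 libraries at 1, or 4.0%. The share of all peaks lying lower is not given here, and some of the 25 held few reads. These shares were not tested, and the genes were chosen with earlier results of these data known.

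The other genes of the pathway were counted in the same way, and the shares of all peaks above apply to them too. Among 10 genes for plasminogen binding, its cofactors and clearance, 7 had assigned peaks, and 0 of their 7 H3K4me3 peaks were called in any comparison in DESeq2. With the block there were 3, 2 and 3 called in the order above, in both directions. Of their 27 H3K27ac peaks, DESeq2 without the block called 1, lower in BrM2 than in Par: S100A10, the partner of annexin A2 that binds plasminogen at the cell surface, at 150 and 133 CPM in Par, 114 and 114 in LM2, with 87.9 and 69.2 in BrM2, with -0.84 ± 0.27 (adjusted p = 0.0351). With the block, a second S100A10 peak was called for BrM2 against Par (-1.20, adjusted p = 0.045), and a peak of ANXA2, which is annexin A2 itself, for BrM2 against LM2 (-0.68, adjusted p = 0.0275).

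Among 12 other inhibitors, 2 had an H3K4me3 peak, and DESeq2 called 0 of these 2 peaks without the block. With it, 2 were called for LM2 against Par and 1 for BrM2 against Par, all lower than in Par. Of the 19 H3K27ac peaks at 8 of the genes, 1 was called without the block, and 1, 2 and 1 were called with it in the 3 comparisons. The 1 called without it lay at SERPINA3, which inhibits chymotrypsin-like proteases, with 25.5 and 24.8 CPM in Par, 44.2 and 25.8 in LM2, then 11.2 and 9.52 in BrM2, so that BrM2 was lower than Par by -1.26 ± 0.40 (adjusted p = 0.0382) and lower than LM2 by -1.68 ± 0.40 (adjusted p = 0.00281).

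Among 11 other clade B serpins, DESeq2 called 1 of 3 peaks for H3K4me3 and 1 of 18 for H3K27ac, both for BrM2 against Par and without the block. With the block, SERPINB9 H3K4me3 was also called for BrM2 against LM2 (-0.77, adjusted p = 1.68e-05). SERPINB9, which inhibits granzyme B, fell from 92.6 and 90.7 CPM of promoter H3K4me3 in Par to 44.3 and 42.4 in BrM2, with LM2 between them at 74.8 and 64.5, and gave -1.15 ± 0.35 (adjusted p = 0.0338). A peak near SERPINB11, in the same chromosome 18 cluster as SERPINB2, rose in H3K27ac from 4.11 and 3.65 CPM in Par to 20.4 and 17.5 in BrM2. LM2 lay between them at 9.30 and 9.84 CPM. The difference from Par was 2.30 ± 0.48 in BrM2 (DESeq2 adjusted p = 0.000207) and 1.23 ± 0.48 in LM2 (adjusted p = 0.164). In this region the neighbours of the SERPINB2 upstream peak had a median of 1.05 in BrM2 and 0.12 in LM2.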

How the data were processed

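The authors deposited raw read counts per consensus peak for each mark library. Per the labels, the study's methods and the file headers, reads were trimmed (Trimmomatic 0.32), aligned to hg19 (Bowtie2 2.3.4.3) and filtered (Picard 2.18.21, SAMtools), broad peaks were called with MACS2 2.1.2 on the merged reads of a mark, and reads extended by 150 bases were counted with featureCounts 1.6.0. A consensus peak set gives every line the same regions. The deposited coordinate lists repeat the count tables and were not used further. All 12 count columns matched a sample.

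Here, peaks were assigned with GENCODE release 44 lifted to GRCh37. Counts were tested over all peaks of a mark with DESeq2 1.42.0 (Wald test, unshrunken fold changes, 6 libraries in 1 fit, adjusted p under 0.05), as in the study's methods, and with edgeR 4.0.16 as an alternative, in R 4.3.3, after tests on simulated data. CPM are counts per 1000000 reads in peaks. The replicate numbers come from the sample titles. Deviations of same-numbered libraries correlated at r = 0.788 to 0.843 for H3K4me3 and 0.407 to 0.607 for H3K27ac. The numbers were therefore used as a block. The titles name no pairing, and the source of the shared deviations was not tested. Replicates differed by more than sampling noise (chi-square per degree of freedom 2.63 to 14.3). Alternatives were edgeR, the block, TMM size factors, count filters, removal of 5 Mb window medians, gene 5′ ends, a 50 kb limit and leaving out each library. Named were, for each gene, the strongest peak of each mark and every called peak. The other pathway genes were given by counts, with values for those called. The further, uncalled peaks of the genes were added after the values were seen. Values of some genes outside the set are not reported here. The members and lists were chosen with earlier results of these data known. The labels state 10 min of fixation.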

Additional observations from a re-analysis of the deposited data

Results flagged for a closer look

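The SERPINE2 intronic H3K27ac peak was set apart because its changes from Par differed between the sub-populations. The change in BrM2 minus the change in LM2 was -2.37 ± 0.72 on the log2 scale (DESeq2 adjusted p = 0.0394), with both BrM2 libraries lower than both LM2 libraries. That is the same BrM2 against LM2 comparison as given above, not a further test. The peak held 8 and 2 reads in the BrM2 libraries, and the call was lost whenever any 1 library was left out.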

How the results depend on the processing

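With the replicate number as a block, DESeq2 called 1, 3 and 4 of the 8 H3K4me3 peaks (0 without it). The order was LM2 against Par, BrM2 against Par and BrM2 against LM2, and the shares of all peaks were 14.4%, 17.7% and 22.0%. In edgeR with TMM and the block, 2, 5 and 6 of the 7 peaks kept were called, beside 31.1%, 36.3% and 42.7% of all peaks. For H3K27ac, the DESeq2 block changed no count (1, 2 and 1), beside 5.44%, 8.13% and 6.17% of all peaks. The edgeR test with the block called 4, 9 and 4 of 22, beside 16.7%, 20.3% and 16.6% of all peaks. A minimum of 10 counts in every library and the absence of independent filtering each gave 1 H3K27ac peak for BrM2 against Par and 0 for BrM2 against LM2. Shares of all peaks are not given here for these settings or for leaving out a library. Leaving out each library in turn gave 1 H3K27ac peak for BrM2 against Par and 0 for BrM2 against LM2 every time, because the SERPINE2 intronic peak was lost, while the SERPINB2 upstream peak stayed called, with log2 fold changes of 2.04 to 2.79 for LM2 and 2.04 to 2.80 for BrM2. With window medians removed, the median over the H3K27ac peaks for BrM2 against Par was 0.11, and leaving out 1 library took the H3K4me3 median for BrM2 against LM2 from 0.00 to 0.78 and for BrM2 against Par from 0.36 to 0.63, and the H3K27ac median for LM2 against Par from 0.24 to 0.44. No call changed direction. There were 2 libraries per line, replicates differed by more than counting noise, and some peaks held as few as 0 reads in a library. A difference that did not pass was therefore not shown to be absent.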
